A study of Mus musculus with 346 samples.

Results

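Ligands, receptors and targets of the TGF-β and BMP pathways were followed through single mammary cells of 3 stages of post-natal development. The set held 10 genes of the 27179 in the count tables, namely the ligands Tgfb1, Tgfb2, Tgfb3, Bmp4 and Bmp7, the receptors Tgfbr1, Tgfbr2 and Bmpr1a, and the target genes Id1 and Id3. They were taken by name through their Entrez numbers and not by a cut-off on their values. Earlier results of these data were known when the set was chosen. FVB/NJ, an inbred strain, was the source of every mammary gland, and the labels name no treatment or genetic change. Cells had been sorted as total epithelium (basal and luminal cells) from mice aged 2 weeks (pre-puberty), 4.7 to 4.9 weeks (puberty) or 10 weeks (adult), and each was captured in its own chamber of a Fluidigm C1 chip, where its RNA was copied into cDNA. The labels do not tie a cell to a mouse, so each stage counts as 1 sample and no test was made between stages or between classes of cells. Where 3 values are given in turn, they belong to pre-puberty, puberty and the adult in that order.

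TGF-β and BMP ligands are secreted proteins that bring type I and type II receptor kinases together on the cell surface, which then phosphorylate SMAD proteins that carry the signal to the nucleus. Tgfbr2 and Tgfbr1 are the type II and type I receptors for TGF-β, and Bmpr1a is a type I receptor for BMPs. TGF-β is best known in the mammary gland for holding back the growth of ducts, while BMPs take part in the early placement and outgrowth of the gland. Id1 and Id3 encode helix-loop-helix proteins without a DNA-binding region that sequester other transcription factors, and they are among the usual targets of BMP signalling.

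The sequences just upstream of Tgfbr2 and Id3 are shown because the keratin comparison at puberty turns on Tgfbr2 and because Id3 had the highest level of the 10 genes, also per length, at every stage. Each run holds the 250 bases before the gene's start, 5′ to 3′ on the gene's strand, as RefSeq gives them on GRCm38.p6, and capitals mark CAGAC, the short sequence bound by SMAD3 and SMAD4, on either strand. Tgfbr2 lies on the minus strand (chr9:116175364-116175613) and Id3 on the plus strand (chr4:136143572-136143821).
Tgfbr2: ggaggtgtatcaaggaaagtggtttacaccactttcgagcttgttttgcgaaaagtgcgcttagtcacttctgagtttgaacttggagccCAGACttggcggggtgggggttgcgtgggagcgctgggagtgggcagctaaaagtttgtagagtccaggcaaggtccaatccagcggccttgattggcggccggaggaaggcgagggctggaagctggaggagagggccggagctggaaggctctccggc
Id3: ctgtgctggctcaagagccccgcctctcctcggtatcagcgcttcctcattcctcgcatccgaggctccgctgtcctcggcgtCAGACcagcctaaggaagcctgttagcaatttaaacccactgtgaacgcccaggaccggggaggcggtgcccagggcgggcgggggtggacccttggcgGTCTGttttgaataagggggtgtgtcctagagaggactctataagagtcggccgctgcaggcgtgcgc
The stretch before Tgfbr2 holds CAGAC 1 time and that before Id3 holds it 2 times, while GGCGCC, a short sequence bound by the SMADs of the BMP branch, is in neither. CAGAC was found in 42.2% of the 32851 upstream stretches of the same length in the RefSeq table and GGCGCC in 9.59%, so these matches are a description of the letters only. The table held 7 of the 10 genes, and Tgfb3, Bmp7 and Id1 were not among them.

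Of 346 cells, 279 had at least 100000 reads on the analysed genes and at least 1500 genes detected, and were used, in turn 116, 119 and 44 cells with 109393 to 1189706 reads each. Going by the median cell, the label of the cells held at puberty and in the adult but not at pre-puberty. There the median cell showed 0 of 14 pan-epithelial markers, 15 of 20 Schwann cell (peripheral glia) markers and 6 of 16 fibroblast markers, while the median pubertal cell showed 9, 1 and 1 and the median adult cell 7, 2 and 2 of them. Of 12 basal markers the median cell showed 2, 2 and 6 in turn. The 17 pre-pubertal cells positive for Krt14 differed from the rest, with medians of 10 basal, 4 pan-epithelial and 14 Schwann cell markers. Every difference between pre-puberty and the later stages runs alongside the change in pan-epithelial, Schwann cell and fibroblast markers, and stage and kind of cell cannot be told apart. Levels are given as the reads of all cells of a group summed and scaled to 1000000 reads (CPM), with exact 95% Poisson intervals, and shares of cells were counted after each cell had been thinned at random to 100000 reads, with exact (Clopper-Pearson) 95% intervals. After thinning, the median cell had 2858, 2710 and 2158 genes of any kind detected. Lower shares in the adult therefore run alongside fewer genes detected per cell. All intervals, and the limit of 3 reads that a count of 0 allows, cover counting error only. A gene was called higher or lower when its log2 ratio, taken after adding 5 CPM to both values, passed 2-fold and it had at least 10 CPM in either group.

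The ligands were read in few cells at any stage. Tgfb2 (Entrez 21808, chr1:186622787-186709697) was higher at pre-puberty than later, Bmp4 reads lay almost all in pre-pubertal cells, and Bmp7 was scarce before puberty. Some TGF-β ligand was detected in 34 of 116 cells at pre-puberty (29.3%, 21.2 to 38.5), in 23 of 119 at puberty (19.3%, 12.7 to 27.6) and in 9 of the 44 adult cells (20.5%, 9.80 to 35.3).

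Tgfb2 ranged from 0 to 1092 CPM over pre-pubertal cells, from 0 to 1590 over pubertal cells and from 0 to 537 over adult cells, with a median cell at 0 at each stage. Summed over cells it stood in turn at 50.0 CPM (47.9 to 52.2), 17.5 (16.6 to 18.6) and 10.2 (8.81 to 11.8), and its share of thinned cells was 21.6%, 9.24% and 6.82%. Most of the later signal sat in single cells. At puberty 1 cell held 55.2% of the reads, and in the adult cell 1, in which 15 of 16 fibroblast markers were detected, held 97.9%. The log2 ratio of pre-puberty over puberty was 1.29, or 1.74 without the highest cell of each group, and that of pre-puberty over the adult was 1.86 (3.05 without them). In cells of 200000 to 600000 reads the first was 0.79, which is not past 2-fold.

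Bmp4 (Entrez 12159, chr14:46383525-46390669), a ligand made by the mesenchyme of the embryonic gland, was in turn at 26.3 CPM (24.7 to 27.9), 0.321 (0.201 to 0.486) and 0.107 (0.0129 to 0.386). It was found in 9 of 116 pre-pubertal cells before thinning, in 1 of 119 at puberty and in 1 of 44 in the adult, where it rested on 2 reads. A single pre-pubertal cell, number 29, held 76.6% of the 1069 reads at that stage. That cell belongs to numbers 1 to 37, in which only 12 cells passed the filter, and the 104 pre-pubertal cells from number 38 on had 1.59 CPM (1.17 to 2.11). The log2 ratio of pre-puberty over puberty was 2.55 with all cells and 0.31 with those from number 38 on, which is not past 2-fold. The 1 pubertal cell with Bmp4 carried 12 fibroblast markers and the 1 adult cell carried all 10 endothelial markers.

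Bmp7 (Entrez 12162, chr2:172868012-172940321) went the other way, with 0.565 CPM (0.358 to 0.848), then 8.84 (8.15 to 9.57) and 6.41 (5.32 to 7.67). Before thinning, 2, 18 and 3 cells held it. No stage reached 10 CPM, so Bmp7 was outside the calls, although pre-puberty had 0.0639 times the pubertal level by counts (0.0402 to 0.0968).

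Tgfb3 (Entrez 21809, chr12:86056743-86079041) stood in turn at 13.1 CPM (12.0 to 14.2), 25.7 (24.5 to 26.9) and 30.4 (28.0 to 33.0), differences within 2-fold with all cells after 5 CPM was added, with shares of 8.62%, 10.9% and 15.9% of thinned cells. At each stage 4 cells held 90% of its reads. The log2 ratio of pre-puberty over adult, -0.97 with all cells, ran to -1.29 in cells of 200000 to 600000 reads and was also past 2-fold with 1 CPM added (-1.16), with each cell given equal weight (-1.26), in thinned cells (-1.18) and without cells with at least 10 fibroblast or 3 endothelial markers (-1.04). That of puberty over adult, -0.21 with all cells, was -1.46 in cells of 200000 to 600000 reads. Tgfb1 (Entrez 21803, chr7:25687002-25705077) was almost unread. It was at 0.835 CPM in 2 pre-pubertal cells and 0.583 CPM in 6 pubertal cells, and no read was seen in 44 adult cells, which allows up to 0.160 CPM. The exact 95% interval of the share of cells with a read reaches 8.04%, a limit on cells with a read and not on cells that express the gene. The exons of Tgfb2, Tgfb3, Bmp4 and Bmpr1a overlap genes on the opposite strand, and since strand-specific counting is not given in the sources used here, their reads cannot be told apart from those of the overlapping genes.

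**Figure D1:**
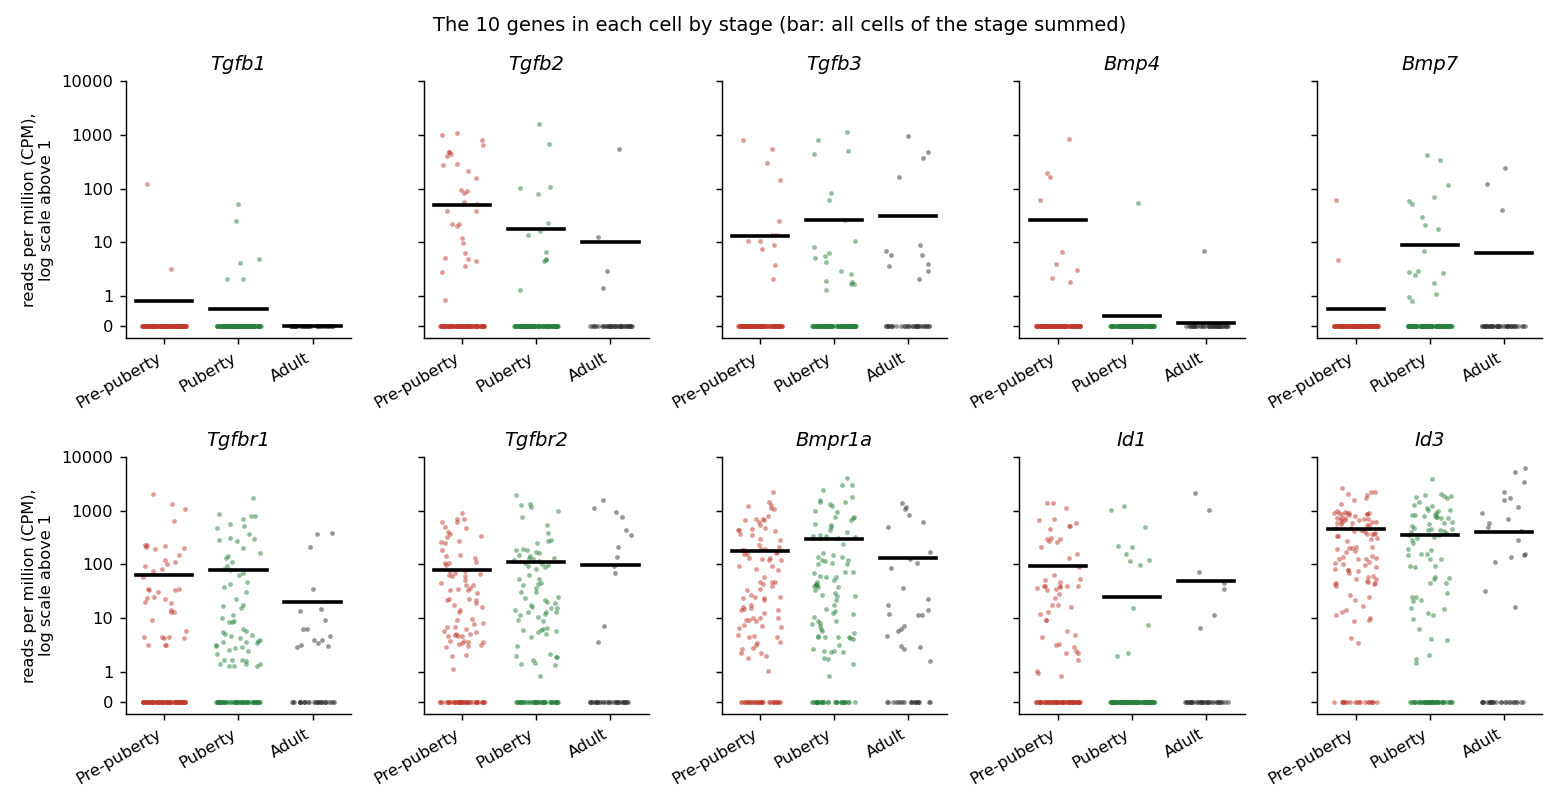
Each point is 1 cell and each panel 1 gene, with CPM on the vertical axis (linear below 1, logarithmic above) for 116 pre-pubertal, 119 pubertal and 44 adult cells, and the bar gives the summed level of the stage. The ligand panels are mostly points at 0 with a few high cells, while the receptors and Id3 spread from 0 to above 1000 CPM, and the Id1 points are densest at pre-puberty.

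The receptors were detected in more cells than the ligands, and Tgfbr1 and Bmpr1a were lowest in the adult. Tgfbr1 (Entrez 21812, chr4:47353222-47414926) stood in turn at 62.8 CPM (60.4 to 65.3), 78.6 (76.5 to 80.7) and 20.1 (18.2 to 22.3). Per cell it ran from 0 to 2031 CPM, from 0 to 1698 and from 0 to 383, with medians of 0, 1.4 and 0, so the 3 stages overlapped. The adult level was lower with a log2 ratio of pre-puberty over adult of 1.43 and of puberty over adult of 1.73, and both stayed past 2-fold under all alternatives tried, 13 for the first (1.04 to 2.38) and 12 for the second (1.30 to 2.44). The shares of thinned cells were closer together, at 29.3% (21.2 to 38.5), 31.9% (23.7 to 41.1) and 22.7% (11.5 to 37.8), with intervals that overlap.

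Bmpr1a (Entrez 12166, chr14:34411061-34503336) was the highest of the receptors in the set at every stage, also per length. It had 32.5, 54.9 and 25.0 reads per 1000 bases per 1000000 reads (RPKM). Its CPM were 173 (169 to 177), 293 (289 to 297) and 133 (128 to 138). The log2 ratio of puberty over adult was 1.11, or not past 2-fold with median-of-ratios scaling (0.99) or with each cell given equal weight (0.93), and that of pre-puberty over puberty was -0.74. Its share of thinned cells was 62.1%, 58.0% and 45.5%. In the adult, 2 cells held 50% of its reads.

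Tgfbr2 (Entrez 21813, chr9:116087695-116175363), the kinase through which TGF-β binding is first read, did not pass 2-fold between any stages with all cells, at 78.2 CPM (75.6 to 81.0), 110 (108 to 113) and 99.0 (94.6 to 104). It was found in a smaller share of thinned cells in the adult, 25.0% (13.2 to 40.3), than at pre-puberty, 48.3% (38.9 to 57.7), or puberty, 45.4% (36.2 to 54.8). Fewer genes of any kind were also detected in the median adult cell after thinning. In the adult 3 cells held 50% of its reads. Its log2 ratio of pre-puberty over adult, -0.32 with all cells, was -1.40 without cells with 6 or more fibroblast markers and -1.01 in cells of 200000 to 600000 reads, and that of pre-puberty over puberty, -0.47 with all cells, was -1.53 without the cells with those markers. Without thinning the shares of Tgfbr1 were 35.3%, 54.6% and 36.4%, so its higher share at puberty before thinning went with the greater depth of those cells.

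**Figure D2:**
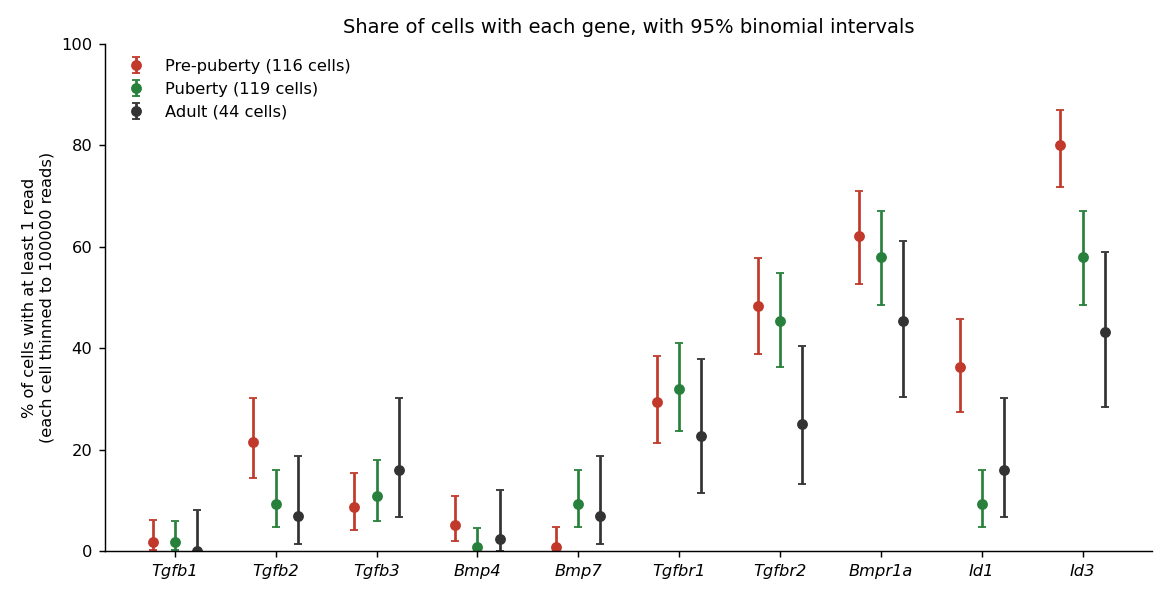
Points give the percentage of cells with at least 1 read after thinning to 100000 reads, for each gene (horizontal axis) and stage (colour), and bars are exact 95% binomial intervals. Id1 (36.2%, 9.24% and 15.9%) and Id3 (80.2%, 58.0% and 43.2%) show the widest gaps between stages, and the ligands stay below 22%.

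Id3 (Entrez 15903, chr4:136143822-136145392) was the most abundant of the 10 genes at every stage. Per length it stood at 466, 369 and 424 RPKM, against 103, 27.6 and 53.7 RPKM for Id1. Its summed level was at 444 CPM (438 to 451), 351 (347 to 356) and 404 (395 to 414), and no stage comparison passed 2-fold with all cells. In cells of 200000 to 600000 reads the log2 ratio of puberty over adult was -1.06, against -0.20 with all cells. The share of thinned cells with Id3 differed more, at 80.2% (71.7 to 87.0), 58.0% (48.6 to 67.0) and 43.2% (28.4 to 59.0), and the median cell had 156.8, 22.1 and 0 CPM. The highest cells had 2592, 3892 and 6250 CPM, so the stages overlap. With all cells, a like summed level in the adult came from a smaller share of cells. The highest pubertal cell had 5 endothelial markers and the highest adult cell 14 fibroblast markers. In the adult 40.5% of the reads lay in 5 cells with at least 10 fibroblast or 3 endothelial markers. Without such cells the levels were 452, 317 and 265 CPM. The log2 ratio of pre-puberty over adult was then 0.76 and that of puberty over adult 0.25.

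Id1 (Entrez 15901, chr2:152736251-152737410) was the target called between pre-puberty and puberty. Its level was 93.5 CPM (90.6 to 96.5), 25.1 (23.9 to 26.3) and 48.9 (45.8 to 52.2), and its share of thinned cells 36.2% (27.5 to 45.7), 9.24% (4.70 to 15.9) and 15.9% (6.64 to 30.1). Single cells ran from 0 to 1371, 1193 and 2150 CPM, with a median of 0 at each stage. The log2 ratio of pre-puberty over puberty was 1.71 and stayed between 1.33 and 4.31 under 13 alternatives. That of pre-puberty over the adult was 0.87 and was not called with all cells. In the adult 1 cell held 58.9% of the reads, and without the highest cell of each group the log2 ratio was 1.75. Over 13 alternatives it ran from 0.11 to 1.81, with the lowest value in the window of read depth used for Id3 above. Whether it passed 2-fold therefore depended on the cells and settings chosen.

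The pubertal Id1 cells were also the cells with endothelial markers, which was noticed after the values were seen. Of 87 pubertal cells with 0 of 10 endothelial markers after thinning, 1 had Id1. Of 23 with 1 marker, 1 had Id1, no cell had 2, and all 9 cells with at least 3 markers had it. The study's gate for sorting left out cells with CD31, the protein of Pecam1, and 7 of these 9 cells had Pecam1 reads, at up to 138 CPM. Those 9 cells held 96.9% of the pubertal Id1 reads, at 396 CPM against 0.116 CPM in the 87 cells without a marker. They were not a single keratin class, since 5 were positive for both keratin types, 2 for Krt8 or Krt18 only, 1 for Krt14 only and 1 for neither. Most also carried epithelial markers. Of 14 pan-epithelial markers, cells 5, 34, 35, 39, 59, 64 and 115 had 10, 9, 12, 8, 11, 10 and 11. Cells 8 and 63 had 2 and 3, and the median pubertal cell had 9. Whether a chamber held more than 1 cell was not tested here.

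Id1 was highest in pubertal cell 8 (1193 CPM), which had neither keratin type and 5 endothelial markers, followed by cell 5 (1007 CPM, 4 markers) and cell 59 (499 CPM, 7 markers). In the adult, 835 of 916 Id1 reads (91.2%) lay in 2 of the 3 cells with neither keratin type. These were cell 44 (2150 CPM, 2 endothelial markers) and cell 5 (1031 CPM, all 10 markers). Pre-pubertal Id1 did not follow these markers, since 36 of the 100 cells with 0 endothelial markers had it, at 98.5 CPM.

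Fabp4, which encodes a fatty acid carrier of fat cells and capillary endothelium, was the gene most like Id1 over cells within stages. On log2(CPM + 10) its Pearson correlation with Id1 was 0.90 over 119 pubertal cells, 0.79 over 44 adult cells and 0.12 over 116 pre-pubertal cells, and Mgll and Slfn5 came next with mean correlations of 0.47 and 0.46. These correlations rest on few positive cells that share a library and a depth each. The pubertal cells with Id1 and at least 3 endothelial markers had 2403 to 22136 CPM of Fabp4. The other 5 members compared had weaker likenesses among the 2963 genes compared, and Tgfb1, Tgfb3, Bmp4 and Bmp7 were in too few cells for this. First came Thbs1, whose product can activate latent TGF-β, for Tgfbr1 (mean correlation 0.35), Vcan for Tgfb2 (0.34), D8Ertd738e for Bmpr1a (0.29), Gng10 for Tgfbr2 (0.28) and Bnip3l for Id3 (0.26), all weak in counts this sparse.

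**Figure D3:**
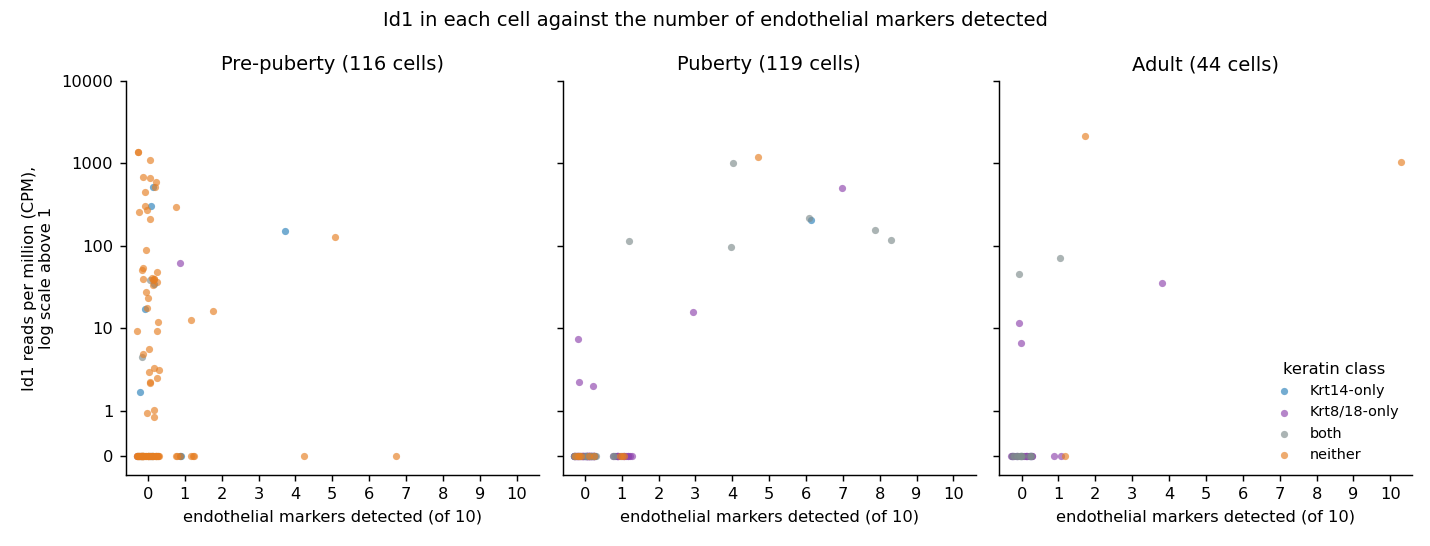
Each point is 1 cell, with the number of the 10 endothelial markers detected after thinning on the horizontal axis (points are spread sideways), Id1 in CPM on the vertical axis (linear below 1, logarithmic above) and the keratin class as colour. At puberty all 9 cells with at least 3 markers lie above 0, while at pre-puberty the Id1 cells sit mostly at 0 markers.

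Most cells with Id1 also had Id3, but their levels were only weakly correlated within stages, in turn at 0.16, 0.18 and 0.21. All 11 pubertal cells with Id1 after thinning also had Id3 (100%, 71.5 to 100), against 58 of the 108 without Id1 (53.7%, 43.9 to 63.3). Of these 11 cells, 9 were the cells with at least 3 endothelial markers. In the adult the counts were 6 of 7 and 13 of 37 cells. At pre-puberty they were 37 of 42 (88.1%, 74.4 to 96.0) and 56 of 74 (75.7%, 64.3 to 84.9), with intervals that overlap. Before thinning, 12 of 13 pubertal Id1 cells had Id3, so the nesting was not complete. The receptor pair of TGF-β was seldom complete in a cell at this depth: Tgfbr1 and Tgfbr2 were found together in 19 of 116, 21 of 119 and 4 of 44 cells, and together with a TGF-β ligand in 6, 3 and 1 cells.

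Counted as calls, 3 of the 8 members tested passed 2-fold between pre-puberty and puberty, beside 45.5% of all genes tested. All 3 (Tgfb2, Bmp4 and Id1) were higher at pre-puberty, beside 21.4% of all genes, and 0 were lower, beside 24.0%. Against the adult, 3 of 8 passed, beside 60.5% of all genes, all higher at pre-puberty (Tgfb2, Bmp4 and Tgfbr1), beside 31.7% higher and 28.9% lower. At puberty 2 of 7 passed against the adult, beside 49.0% of all genes, both higher (Tgfbr1 and Bmpr1a), beside 28.4% higher and 20.6% lower. The median log2 ratio over the members tested was 0.02, 0.62 and 0.15 in these comparisons, beside -0.12, 0.03 and 0.10 over all genes tested. Bmp7 and Tgfb1 were under 10 CPM at every stage and Bmp4 at the later ones. The comparisons share their groups, and the share of members called did not exceed that of all genes in any of them.

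Basal and luminal cells were set apart by their keratins, Krt14 for basal cells and Krt8 and Krt18 for luminal cells, each called at above 40 RPKM. At pre-puberty 97 of 116 cells had none of them and only 10, 2 and 7 cells were Krt14-only, Krt8/18-only and positive for both, so the classes were not compared there. The pubertal cells held 5 Krt14-only, 80 Krt8/18-only, 24 with both and 10 with neither, and the adult cells 5, 22, 14 and 3. The classes followed their markers: of 12 basal and 10 luminal markers, the median pubertal Krt14-only cell had 9 and 2 and the adult one 11 and 2, while the median pubertal Krt8/18-only cell had 1 and 7 and the adult one 2 and 5. Cells with both keratins had medians of 9 basal and 6 luminal markers at puberty. They made up most of the Krt14-positive cells, which numbered 29 at puberty and 19 in the adult. Both groupings are given below for the members.

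Tgfbr2 was lower in the Krt14 cells of puberty under both groupings. In the 5 Krt14-only cells it was at 0, 0, 0, 0.846 and 0 CPM, and in the 80 Krt8/18-only cells it ranged from 0 through a median of 11.1 to 1924 CPM. The classes overlap at the low end only, and no Krt14-only cell reached the luminal median. Summed, Krt14-only cells had 0.244 CPM on 1 read and Krt8/18-only cells 155.8 CPM, a log2 ratio of -4.94. Over all 29 Krt14-positive cells Tgfbr2 was at 15.1 CPM, 0.0971 times the Krt8/18-only level by counts (0.0855 to 0.110), with a highest cell of 143 CPM. The log2 ratio of these was -2.998, and -2.91 without the highest cell of each group. Detection differed less than the level, at 34.5% (17.9 to 54.3) against 51.2% (39.8 to 62.6) of thinned cells. In the adult, all 5 Krt14-only cells had 0 reads, at least 73.4-fold lower by counts than the 107.5 CPM of the 22 Krt8/18-only cells. Only 7 of those 22 cells had Tgfbr2 reads before thinning, with a median cell at 0 CPM and 45.75% of the reads in 1 cell. With so few positive cells, 5 cells without a read say little about the class. The 14 cells with both keratins had 102 CPM, and the log2 ratio over all Krt14-positive cells was -0.50.

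Bmp7 was higher in all Krt14-positive cells together than in Krt8/18-only cells at both stages. At puberty 76.7% of its reads lay in the cells with both keratins. In the Krt14-only cells of puberty it was at 0, 0, 50.9, 0.846 and 0 CPM and in those of the adult at 119, 0, 0, 0 and 39.7 CPM. At puberty 10 of 29 Krt14-positive cells had Bmp7 reads, against 6 of 80 Krt8/18-only cells, and the levels were 29.7 and 2.04 CPM, a ratio of 14.6 by counts (11.6 to 18.4). The log2 ratio was 2.30, or 1.67 without the highest cell of each group. With the Krt14-only cells alone it was 1.21 and rested on cell 63, without which it was -0.11. In the adult the 120 reads of Bmp7 lay in 3 Krt14-positive cells, 60 of them in Krt14-only cells, and none in 22 Krt8/18-only cells, which makes the Krt14-positive level of 15.7 CPM at least 52.6-fold higher than the limit of 3 reads.

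Tgfbr1 and Bmpr1a depended on how the cells with both keratins were placed. At puberty the Krt14-only cells had 0, 1.31, 3.40, 1.69 and 1.31 CPM of Tgfbr1 and 4.02, 0, 52.1, 13.5 and 10.5 CPM of Bmpr1a, while the Krt8/18-only cells had medians of 1.45 and 10.4 CPM and highest cells of 1698 and 3993 CPM. The middle Krt14-only cells, at 1.31 and 10.5 CPM, lay close to these medians. Between these classes the high cells were all on the Krt8/18-only side, but cells with both keratins reached 863 and 1797 CPM. The log2 ratios were -3.66 and -4.03 for Krt14-only cells but 0.09 and -0.82 for all Krt14-positive cells. In the adult, all Krt14-positive cells together were higher in both, with 46.4 against 2.09 CPM of Tgfbr1 (log2 2.86) and 245 against 60.6 CPM of Bmpr1a (log2 1.93), and without the highest cell of each group these were 2.36 and 1.66. Shares of thinned cells were 36.8% against 9.09% for Tgfbr1 but 36.8% against 54.5% for Bmpr1a, with few cells on either side. In the Krt14-only cells alone neither was past 2-fold, with log2 ratios of -0.37 and 0.73, and all 212 Bmpr1a reads lay in cell 62 (1059 CPM), without which, and without the highest Krt8/18-only cell, the value was -3.15.

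Summed over cells, Id3 was lower in Krt14-only than in Krt8/18-only cells at both stages. It was at 2.01, 0, 29.4, 0 and 0 CPM at puberty and at 483, 0, 0, 0 and 0 CPM in the adult, against Krt8/18-only medians of 23.6 and 0 CPM with highest cells of 2025 and 6250. The log2 ratios were -4.96 and -2.52. With the cells of both keratins included they were -0.48 and -1.24, so that only the adult one remained past 2-fold. In the adult 10 of 22 Krt8/18-only cells had Id3 reads, 29.4% of them in 1 cell. Over 16 alternatives the adult log2 ratio ran from -6.57 to -0.41. Id1 was higher in Krt14-positive cells at puberty, with 53.4 against 7.06 CPM and a log2 ratio of 2.27, and 6 of its 7 positive cells there were cells with at least 3 endothelial markers and the other carried 12 fibroblast markers. Of the remaining ligands, Tgfb3 was at 27.2 CPM in pubertal Krt14-positive cells, 95.3% of it in 1 cell, and Tgfb2 was unread in the 5 pubertal Krt14-only cells.

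**Figure D4:**
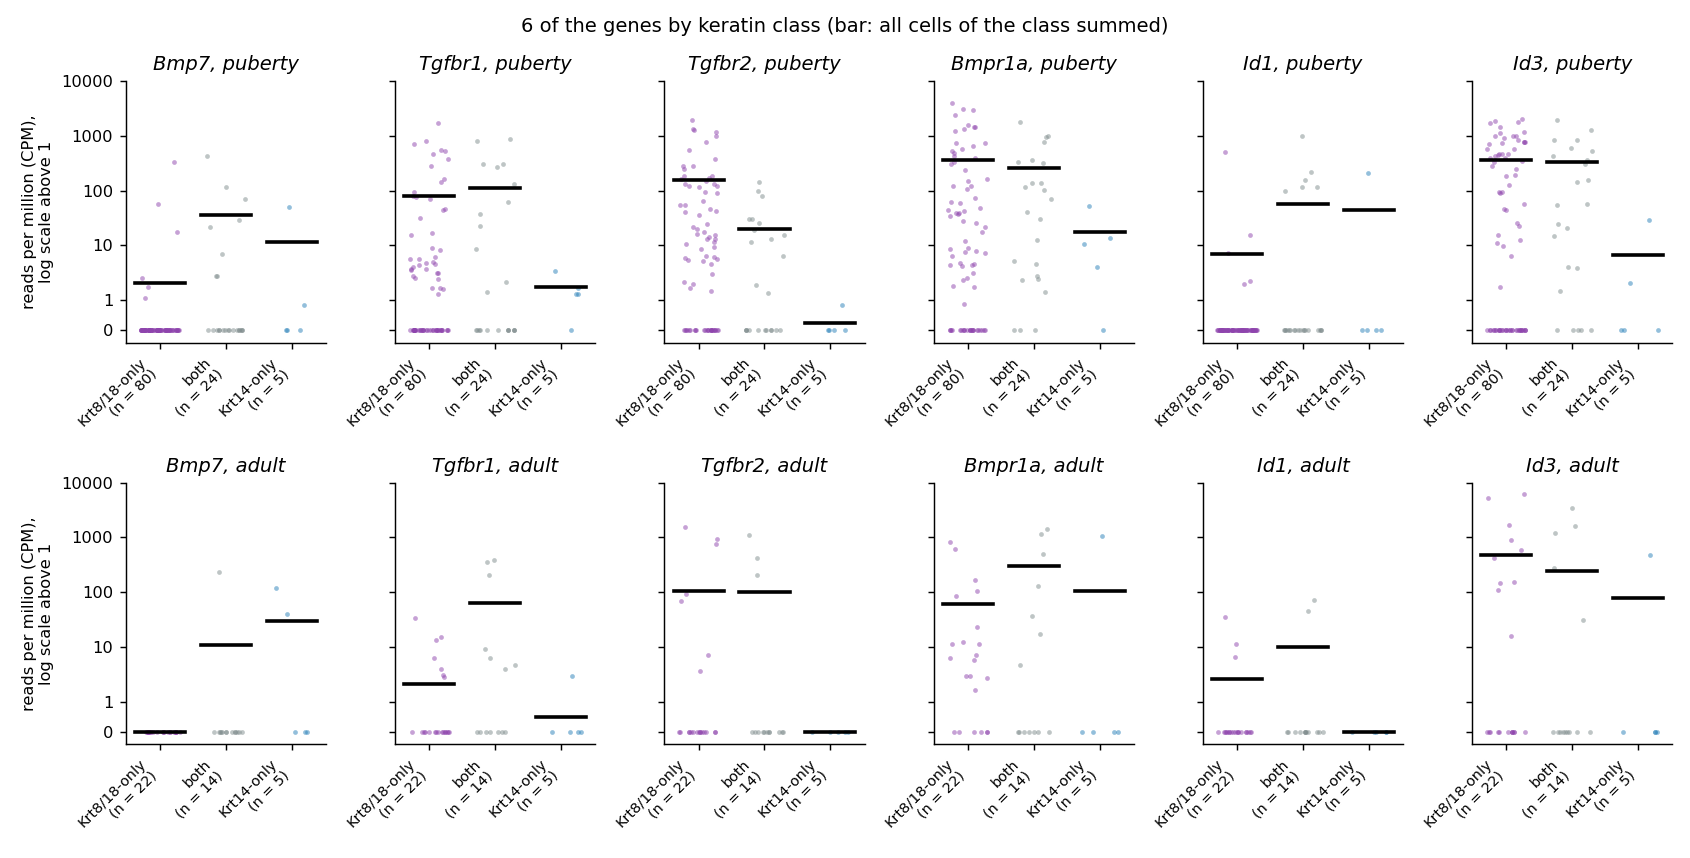
Each point is 1 cell, in CPM (linear below 1, logarithmic above), for 6 of the genes at puberty (top) and in the adult (bottom), split into cells with Krt8 or Krt18 only, both keratin types or Krt14 only, and the bar is the summed level of the class. Tgfbr2 is at 155.8, 19.8 and 0.244 CPM in the pubertal classes from left to right, and Bmp7 has no read in the 22 adult Krt8/18-only cells.

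Counted over the members tested, all 8 passed 2-fold in the 5 pubertal Krt14-only cells, beside 72.7% of all genes. Bmp7 and Id1 (2 of 8) were higher, beside 21.0% of all genes, and the other 6 lower, beside 51.6%. The higher values of Bmp7 and Id1 rested on cell 63, which had 6 endothelial markers. Those of Tgfb2 and Tgfb3 leaned on 1 Krt8/18-only cell each, with 75.2% and 63.7% of that class's reads. Without the highest cell of each group Bmp7, Id1, Tgfb2 and Tgfb3 were at -0.11, -0.05, -0.99 and -0.70, none past 2-fold. In the 5 adult cells 4 of 5 passed, beside 82.4% of all genes, with 1 higher (Bmp7), beside 24.1%, and 3 lower (Tgfb3, Tgfbr2 and Id3), beside 58.3%. Tgfb3 was there at 0.977 CPM against 35.1 in Krt8/18-only cells (log2 -2.75), though its shares of thinned cells were 20.0% and 18.2%. Over all adult Krt14-positive cells its log2 ratio was -0.27, or -2.23 without the highest cell of each group. The median of all genes was itself shifted, to -1.15 at puberty and -1.71 in the adult, beside -2.98 and -2.52 over the members tested. With all Krt14-positive cells, 2 of 8 members were higher (Bmp7 and Id1) and 1 lower (Tgfbr2) at puberty, where 21.8% and 25.4% of all genes were. In the adult 4 of 7 were higher (Tgfb2, Bmp7, Tgfbr1 and Bmpr1a) and 1 lower (Id3), where 33.4% and 37.2% of all genes were. Of the adult calls, that of Tgfb2 rested on cell 1 and was 0.11 without the highest cell of each group.

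The rest of the pathway was taken from a list of 60 further genes. Between pre-puberty and puberty 40 of them were tested, 16 higher and 10 lower at pre-puberty, with a median log2 ratio of 0.51, beside 21.4% higher, 24.0% lower and a median of -0.12 over all genes tested. By role, 5 of 7 receptors and co-receptors and 5 of 9 inhibitors were higher at pre-puberty, while 3 of 3 further ligands were lower. Tgfbr3, the co-receptor betaglycan that presents TGF-β to its receptors, had 5241, 570 and 276 CPM and shares of 99.1%, 44.5% and 65.9% of thinned cells. Per length it stood at 866, 94.1 and 45.5 RPKM, which was above every member at pre-puberty but below Id3 at both later stages and below Id1 in the adult. Sostdc1, a secreted BMP inhibitor, went from 737 to 67.0 and 2.19 CPM and from 87.1% to 26.1% and 2.27% of cells. Ltbp4, which holds latent TGF-β in the matrix, was also higher at pre-puberty (log2 2.65). The nuclear repressors Skil and Tgif1 were lower there, with 677 against 3012 CPM and 64.2 against 458 CPM. Itgb6, part of an integrin that activates latent TGF-β, was lower too (log2 -1.76, or -4.42 without the highest cell of each group).

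Against the adult, 9 of 41 genes were higher at pre-puberty and 15 lower, beside 31.7% and 28.9% of all genes tested. At puberty 7 of 39 were higher than in the adult and 15 lower, beside 28.4% and 20.6%. With all cells none of the targets on the list was higher than in the adult at either earlier stage, with 6 of 9 lower at pre-puberty and 5 of 9 lower at puberty. Of the 6, Tgfbi (log2 -2.03) and Id4 (-1.81) were at 0.73 and -0.67 without the highest cell of each group. Ctgf, a matricellular protein and common readout of TGF-β, was at 108, 13.9 and 328 CPM, and in the adult was found in 52.3% of thinned cells. Ltbp2 rose to 138 CPM in the adult from 8.72 and 6.48, Ltbp3 to 178 CPM from 19.0 at pre-puberty, and the BMP co-receptor gene Rgmb was higher at pre-puberty (log2 3.02). Bmp3 had 0.417 CPM at pre-puberty and 63.3 in the adult, a log2 ratio of -3.66, or -1.95 without the highest cell of each group. Follistatin (Fst), which binds activins and BMPs, and Smad2 were higher at puberty than in the adult by log2 ratios of 2.54 and 2.05, and Tgfbi was lower (-3.61), though without the highest cell of each group its value was -0.15. A list of 10 immediate early genes, which respond quickly to handling, summed to 13596, 3911 and 10517 CPM, and its part in these differences was not tested.

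Between the keratin classes, 12 of 34 pathway genes were higher and 13 lower in Krt14-only cells at puberty, beside 21.0% and 51.6% of all genes tested. In the adult 20 of 39 were higher and 15 lower, beside 24.1% and 58.3%. These counts rest on 5 Krt14-only cells at each stage, and counts for all Krt14-positive cells are not given. How many of these calls rest on 1 cell was not counted. The median log2 ratio of the list was -0.41 and 1.08, beside -1.15 and -1.71 over all genes. Ctgf was the clearest in the adult, with 1499 CPM in Krt14-only cells, 4 of 5 of them positive after thinning, against 3.28 CPM in Krt8/18-only cells (log2 7.51, and 6.98 without the highest cell of each group). At puberty Smad2 was higher in Krt14-only cells (log2 3.21, 1.43 without them) and Smurf2, Ski and Tgif1 were lower (-3.53, -3.01 and -2.52). Itgb6, Smad5 and Bmp3 were lower in the adult Krt14-only cells (-5.80, -5.95 and -4.62). Without the highest cell of each group these were -5.45, -3.44 and -2.72. Their shares of thinned cells were 22.7%, 18.2% and 22.7% in the Krt8/18-only cells and 0% in the 5 Krt14-only cells. The higher values of Id4 and Smad3 at puberty and of Fst and Twsg1 in the adult rested on 1 cell each, with log2 ratios of -0.21, -0.93, 0.00 and -0.03 without the highest cell of each group.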

How the data were processed

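Per the labels, RNA of single cells was amplified on the Fluidigm C1 and Nextera XT libraries were sequenced. The deposited values are counts of reads per Entrez gene and cell, made by the authors with Subread 1.4.6 and featureCounts on mm10 and not normalised. Genes without a RefSeq symbol (1904), 15 mitochondrial and 87 ribosomal protein genes were left out, which left 25173. There are no molecular identifiers, so amplified copies count separately. CPM, RPKM (from the deposited gene lengths), thinning, ratios and intervals were computed here with Python 3.11.15, numpy 2.4.6 and scipy 1.17.1, and were tested on simulated counts. The depth of the cells used was 109393 to 1189706 reads, and a count of 0 allows 0.0737, 0.0438 and 0.160 CPM in pre-pubertal, pubertal and adult cells. No doublet caller was run, as the authors inspected the chambers before cDNA was made. No 2 cells held identical counts. The members, the lists and the alternatives were chosen with earlier results of these data known. Named are the 10 members, up to 3 pathway genes in each direction past 2-fold at 50 CPM or more in the higher group, and the 3 genes most correlated with each member found in at least 20% of cells. A table of the whole series was not used here. Alternatives changed the CPM added, filters, scaling, keratin threshold and cells included.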

Additional observations from a re-analysis of the deposited data

Results flagged for a closer look

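Cells below the coverage filter were outside every comparison, yet reads of the 10 genes were present in them above the limit of 3 reads. Summed over the 10 genes, the 28 pre-pubertal cells left out had 1230 CPM (1138 to 1328, 655 reads), against 943 CPM in the cells used. The 17 pubertal cells left out had 832 CPM (768 to 900, 623 reads) against 911, with 56.2% of the reads in 1 cell. The 22 adult cells left out had 140 CPM (107 to 180, 61 reads) against 753, with 72.1% of the reads in 1 cell.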

How the results depend on the processing

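Of the counts of members past 2-fold, 58 of 70 values under the alternatives stayed within 1.5 times the count with all cells. The others follow. With cells of 200000 to 600000 reads only, a choice made after seeing the data, pre-puberty over puberty gave 1 (Id1), pre-puberty over adult 5 (Tgfb2 and Tgfbr1 higher, Tgfb3, Bmp7 and Tgfbr2 lower), puberty over adult 6 (Tgfbr1 and Bmpr1a higher, Tgfb3, Bmp7, Id1 and Id3 lower) and Krt14-only over Krt8/18-only at puberty 5, all lower. Without cells with at least 10 fibroblast or 3 endothelial markers, also chosen after seeing the data, pre-puberty over adult gave 5 (1 lower, Tgfb3), puberty over adult 4 (1 lower, Id1) and the pubertal keratin comparison 5, all lower. Without cells with 6 or more fibroblast markers, which left 21 of 116 pre-pubertal cells, pre-puberty over adult gave 5 (1 lower, Tgfbr2). With all cells no member was lower between stages. Median-of-ratios scaling gave 1 for puberty over adult. The pubertal keratin comparison gave 5 with 20 CPM added, 4 without the highest cell of each group and 3 with the double-positive cells put with Krt14. Among values past 2-fold with all cells, only that comparison held any that changed sign. Values within 2-fold changed sign elsewhere too, such as Id3 for pre-puberty over adult (0.13 to -0.83) and Bmp7 for puberty over adult (0.28 to -1.14), both in the depth window. In the pubertal keratin comparison the log2 ratio of Bmp7 became -0.11 without the highest cell, -0.52 with keratins called at 1 thinned read, -0.39 in the depth window and -0.44 without the marked cells, and that of Id1 became -0.051, -2.23, -0.086 and -0.041. With double-positive cells put with Krt14, Tgfb3 turned to 0.99 and Tgfbr1 to 0.090. Apart from the choice of cells these alternatives set, the cause was not tested. With 1 sample a stage no replicate could be left out, and at 100000 reads a level of 10 CPM is 1 read a cell, so shares of cells say little about lower levels. No paired analysis was possible because each stage is 1 sample and the cell numbers only name cells.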
